A study of Mus musculus with 4 samples.

Results

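The 10 genes described here encode the vascular endothelial growth factors Vegfa, Vegfb and Vegfc with their receptors Flt1, Kdr and Flt4, and the angiopoietins Angpt1 and Angpt2 with the receptors Tek and Tie1. They were taken by gene symbol from the 27998 genes counted in each of 4 single-cell RNA libraries of fetal mouse thymus, and each symbol matched 1 row. For every gene, the unique molecular identifiers (UMIs, each standing for 1 captured transcript) were summed over the cells of a cell type in a library and divided by all UMIs of those cells, which gives a level per 1000000 UMIs (CPM). Since UMIs count transcripts and not reads along them, no length correction was made. Differences in capture between genes were not corrected for, and whether intronic reads were counted is not given. Orders of different genes by level are therefore approximate.

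The thymic lobes were taken at embryonic day 13 to 13.5 and dissociated with trypsin, and each of the 4 groups was 1 library. The wild-type group (Tbx1+/+, ETOH carrier) was compared with 3 groups of Tbx1neo2/neo2 lobes, whose dams had received the ETOH carrier, minoxidil or PGE2 while pregnant, before a thymus rudiment forms. In neo2, a neomycin cassette inserted within a Tbx1 intron leaves some normal transcript, so that the allele models a reduction of Tbx1 and not its loss. Hypoplastic lobes were pooled. How many embryos each library held and the strain were not given in the sources used here. With 1 library a group there was no replicate, so no test could be made: every interval below is an exact 95% interval (Poisson for UMIs, Clopper-Pearson for shares of cells and for ratios) that covers counting error only, and a difference between libraries cannot be told apart from a difference between litters, dissections or runs. A gene was called higher or lower where its levels in a pair of libraries lay 1.5-fold or more apart with separate intervals, and was compared where the pair held at least 20 of its UMIs.

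VEGFA made by tissue cells draws sprouting endothelium through KDR, while FLT1 binds VEGFA and VEGFB and acts in part as a decoy. VEGFC signals through FLT4, best known from lymphatic endothelium, and is also bound by KDR. ANGPT1, classically made by pericytes and other mesenchyme, activates TEK and steadies vessels, ANGPT2 is the context-dependent antagonist of the same receptor, and TIE1 is a partner receptor with no classical ligand of its own. In the thymus the vessels form beside neural crest-derived mesenchyme and epithelium.

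Since the 5 receptor genes shared 1 main source below, the 250 bases before their RefSeq transcription starts are shown (GRCm38.p6, written 5′ to 3′ on the strand of the gene), together with the window of Vegfa at its upstream start. Capitals mark the core letters CGGAA or AGGAA, recognised by ETS factors, on either strand.

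Kdr: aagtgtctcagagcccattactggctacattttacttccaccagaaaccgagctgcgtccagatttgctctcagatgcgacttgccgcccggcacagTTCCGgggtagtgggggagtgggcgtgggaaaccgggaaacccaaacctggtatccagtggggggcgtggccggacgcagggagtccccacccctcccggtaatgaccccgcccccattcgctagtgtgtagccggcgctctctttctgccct
Flt1: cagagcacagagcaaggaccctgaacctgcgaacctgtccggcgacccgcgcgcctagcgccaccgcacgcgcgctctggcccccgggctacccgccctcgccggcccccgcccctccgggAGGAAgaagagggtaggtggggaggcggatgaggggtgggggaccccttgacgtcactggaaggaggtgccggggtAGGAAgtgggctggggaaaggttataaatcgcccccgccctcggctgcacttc
Flt4: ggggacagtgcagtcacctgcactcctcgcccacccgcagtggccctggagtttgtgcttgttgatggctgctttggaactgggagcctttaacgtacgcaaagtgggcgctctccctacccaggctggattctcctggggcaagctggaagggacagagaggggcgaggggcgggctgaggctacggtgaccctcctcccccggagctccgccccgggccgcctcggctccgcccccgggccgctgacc
Tek: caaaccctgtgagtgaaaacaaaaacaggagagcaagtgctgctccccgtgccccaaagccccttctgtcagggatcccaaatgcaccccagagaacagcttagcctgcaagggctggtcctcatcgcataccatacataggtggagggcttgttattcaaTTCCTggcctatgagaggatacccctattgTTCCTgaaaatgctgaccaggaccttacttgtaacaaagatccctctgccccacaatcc
Tie1: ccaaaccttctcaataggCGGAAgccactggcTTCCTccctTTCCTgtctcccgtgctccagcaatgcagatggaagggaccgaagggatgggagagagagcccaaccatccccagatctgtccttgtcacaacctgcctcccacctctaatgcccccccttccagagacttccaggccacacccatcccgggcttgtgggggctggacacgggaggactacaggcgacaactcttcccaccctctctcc
Vegfa: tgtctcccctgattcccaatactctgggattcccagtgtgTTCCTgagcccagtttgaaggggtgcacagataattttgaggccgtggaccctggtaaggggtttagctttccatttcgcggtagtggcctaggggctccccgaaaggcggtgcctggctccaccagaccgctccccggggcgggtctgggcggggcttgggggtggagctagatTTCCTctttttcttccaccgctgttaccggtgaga

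These windows lie at chr5:75978456-75978705 for Kdr, chr5:147726012-147726261 for Flt1, chr11:49609429-49609678 for Flt4, chr4:94739039-94739288 for Tek, chr4:118489850-118490099 for Tie1 and chr17:46032378-46032627 for Vegfa. All but those of Flt4 and Tek lie on the minus strand. Tie1 held 3 matches, Flt1, Tek and Vegfa 2 each and Kdr 1, while none was found in the window of Flt4, nor in those of Vegfb and Vegfc. A match was present in 71.4% of 32851 such windows of all genes, so that 4 of 5 receptor genes is close to the share of any list, and no site or factor can be read from it. The core of the hypoxia response element (ACGTG, on either strand) was not found in the 6 printed windows, was found once in the window of the downstream start of Vegfa, and was present in 16.6% of all windows. In the gene annotation (GENCODE M21, GRCm38) the ligand genes lie on chromosome 17 (Vegfa, 46016993 to 46032369), chromosome 19 (Vegfb, 6982473 to 6987651), chromosome 8 (Vegfc, 54077606 to 54187096, and Angpt2, 18690263 to 18741562) and chromosome 15 (Angpt1, 42424723 to 42676977). The promoters of Angpt1 and Angpt2 are named only.

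The files held 11908 barcodes for wild-type carrier, 11364 for Tbx1neo2/neo2 carrier, 3362 for minoxidil and 4471 for PGE2. After cells under 200 genes or over 10% mitochondrial UMIs had been dropped, the libraries held 11474, 10683, 3201 and 4152 cells, with median depths of 21125, 14108, 41084 and 34790 UMIs. Tbx1, the targeted gene, is described first as a check of the labels: in all kept cells it stood at 2.28, 2.33, 2.46 and 1.14 CPM in this order of libraries, so that over all cells it did not separate the wild-type library from the other 3. In the epithelial class it was lower in all 3 libraries labelled Tbx1neo2/neo2 (1.13, 1.37 and 0.331) than in wild-type carrier (2.36), with intervals that did not overlap. In the mesenchymal class it stood at 3.31, 2.11, 3.62 and 2.03. There Tbx1neo2/neo2 carrier and PGE2 lay below wild-type carrier with separate intervals, whereas minoxidil was not lower and its interval overlapped that of wild-type carrier. In the endothelial class it was not lower in any of the 3 (11.8, 16.9, 19.9 and 24.9). Since the allele still makes transcript, and a UMI does not show whether its transcript was normal, these levels are a weak check of genotype, and the groups are named as labelled throughout. Between 25 and 63 kept cells of a library carried a barcode that also occurred in another library. Cells were sorted into 20 clusters without use of the 10 genes, and 17 clusters were named from marker lists. The endothelial class (201, 245, 98 and 101 cells) carried all 10 of its markers in every library, with a summed level of 4443 to 5172 CPM. Its markers of other cells were not equal between libraries: those of mesenchyme summed to 279, 1252, 518 and 211 CPM and those of red cells to 3827, 3022, 179 and 2857. Their part in the differences below was not tested as such. With cells that carry markers of another class left out, endothelial Tek in minoxidil and Tek and Flt4 in PGE2 lost the calls given below. In the mesenchymal class the Tbx1neo2/neo2 carrier library had the largest share, 58.6% of its cells against 24.8% in wild-type carrier, 31.0% in minoxidil and 20.9% in PGE2, and the makeup of that class differed too, as given with its results.

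The 5 receptor genes were found in endothelial cells above all. Kdr, the principal signalling receptor of VEGFA, stood at 470 CPM in wild-type carrier, 471 in Tbx1neo2/neo2 carrier, 416 in minoxidil and 458 in PGE2. Flt1 followed with 323, 283, 342 and 254, and then Tie1 with 130, 134, 166 and 194. Tek (64.6, 69.3, 108 and 116) and Flt4 (56.0, 60.7, 63.6 and 93.2) had the lowest levels of the receptors. The order Kdr, Flt1, Tie1, Tek held in all 4 libraries with intervals that did not overlap, whereas Tek and Flt4 overlapped in wild-type and Tbx1neo2/neo2 carrier. In the endothelial class lay 83.8% to 94.3% of the Kdr UMIs of a library, 80.8% to 92.3% of those of Flt1, 82.4% to 92.5% of those of Flt4 and 87.9% to 95.6% of those of Tie1, but only 63.3% to 78.9% of those of Tek.

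**Figure D1:**
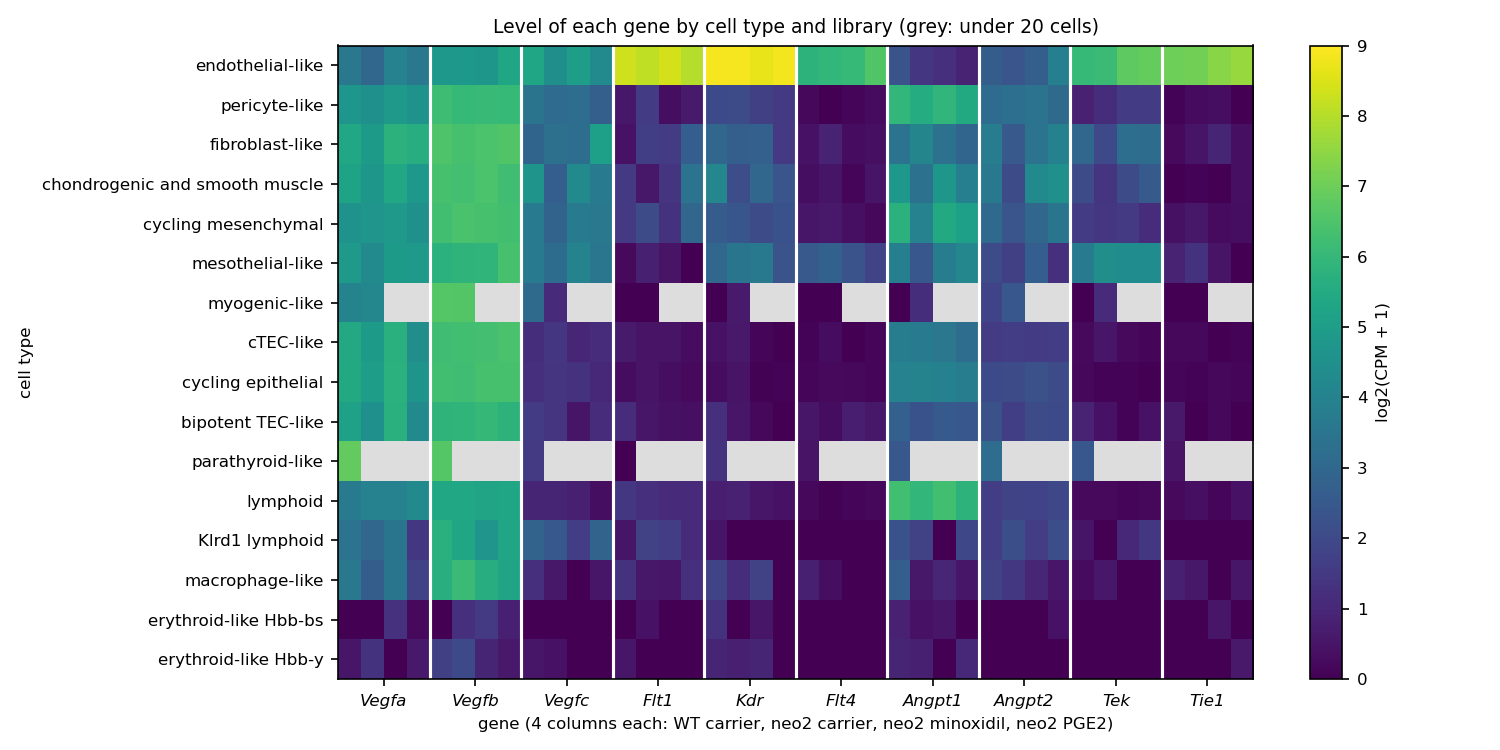
Level of each of the 10 genes (columns, 4 libraries each in the order wild-type carrier, Tbx1neo2/neo2 carrier, minoxidil, PGE2) in each named cell type (rows), as log2 of CPM plus 1; grey marks fewer than 20 cells. Receptors are brightest in the endothelial row (Kdr at 416 to 471 CPM), whereas Vegfa and Vegfb are spread over epithelium and mesenchyme, and Angpt1 over lymphoid, pericyte-like and cycling mesenchymal cells.

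Cells with at least 1 UMI were counted after every cell had been thinned to 5000 UMIs and shallower cells had been left out, which kept 187, 182, 81 and 66 endothelial cells. Kdr was then seen in 78.6%, 85.2%, 75.3% and 87.9% of endothelial cells, Flt1 in 71.1%, 67.0%, 72.8% and 56.1%, and Tie1 in 38.0%, 50.5%, 56.8% and 63.6%. Tek was seen in 32.6%, 33.5%, 37.0% and 43.9%, and Flt4 in 24.6%, 23.6%, 18.5% and 33.3%. Without thinning the shares for Kdr were 90.0%, 76.3%, 78.6% and 76.2%, at median depths of 36969, 18007, 33427 and 21738 UMIs. In red cells the thinned shares did not exceed 1.19% for any gene (Vegfb in Tbx1neo2/neo2 carrier), at median depths of 11968 to 22077 UMIs before thinning. The 10 red cell markers, globins among them, took 854286 to 909325 CPM there. Few UMIs were thus left for other genes, which by itself lowers the levels and shares of red cells here and below. They are therefore no measure of stray RNA in other classes.

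Outside endothelium, receptor transcripts were few, and they were not spread alike. Mesothelial-like cells (Upk3b+) held Tek at 12.3, 20.8, 19.6 and 19.7 CPM, from 15 to 71 UMIs a library, and Flt4 at 4.67, 5.94, 3.93 and 2.63. Their Tek level lay above that of the pericyte-like cells (0.773, 1.28, 2.03 and 2.05) in every library with no overlap of intervals. Kdr in the mesenchymal class stood at 7.53, 4.30, 4.87 and 3.22 CPM, where there were 387, 410, 160 and 76 UMIs of Kdr and 35, 91, 16 and 7 of Cdh5, an endothelial cadherin gene. In the endothelial class itself Kdr gave 0.68, 0.69, 0.58 and 0.72 UMIs for each UMI of Cdh5, against at least 4.51 in the mesenchymal class of every library. Pecam1, another endothelial marker, likewise gave 0.67, 0.65, 0.67 and 0.71 in the endothelial class and 4.1, 1.4, 4.1 and 5.1 in the mesenchymal class. A higher ratio to Cdh5 was therefore not particular to Kdr, and the source of these UMIs was not tested. Tie1 stayed at or below 0.363 CPM in the mesenchymal, epithelial, hematopoietic and red cell classes of all libraries. Parathyroid-like cells, present as a cluster in the wild-type library alone (86 cells), held 12 UMIs of Tek or 4.50 CPM, with an interval of 2.32 to 7.85.

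The ligands came from other cells. Vegfa, the main attractant of sprouting vessels, was highest in epithelium in wild-type carrier (42.3 CPM), Tbx1neo2/neo2 carrier (28.3) and minoxidil (52.2), whereas in PGE2 the epithelium stood at 21.8 and the mesenchyme at 27.5. Mesenchymal levels were 28.9, 26.3 and 34.6 in the first 3 libraries, and in Tbx1neo2/neo2 carrier their interval (25.3 to 27.4) overlapped that of epithelium, which began at 26.6. Hematopoietic cells held 12.4, 13.5, 15 and 17.8, and endothelial cells 11.2, 6.84, 14.9 and 11.1. The highest level of any named type with more than 20 cells was 112 CPM (interval 99.7 to 125) in the parathyroid-like cells of wild-type carrier. Epithelium supplied 56.0%, 25.8%, 60.1% and 42.5% of the Vegfa UMIs of a library and mesenchyme 18.2%, 57.6%, 22.1% and 21%, and these shares move with the number of cells of each class.

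Vegfb, a ligand of FLT1, was the most even gene of the 10. In mesenchyme it stood at 76.1, 79.8, 78.6 and 75.9 CPM and in epithelium at 71.5, 71.4, 76.0 and 76.7, above hematopoietic cells (40.9, 45.2, 37.1 and 39.1) and endothelium (26.6, 26.9, 26.1 and 38.1). Red cells held 0.671 to 2.14. No class differed by 1.5-fold in Vegfb between any pair of libraries that was compared; among the cell types, only macrophage-like cells did (log2 ratio -0.90 for PGE2 against Tbx1neo2/neo2 carrier, interval -1.28 to -0.54, 1 of 2 genes compared beside 17.0%).

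Vegfc, the ligand of FLT4, was higher in the endothelial class than in the other named classes of every library, at 38.9, 21.1, 32.3 and 18.4 CPM, although in PGE2 the fibroblast-like cells of the mesenchyme stood above it at 32.8. Mesenchyme held 13.5, 6.78, 12.4 and 13.1 CPM and, being more numerous, 48.5% to 71.2% of all Vegfc UMIs against 14.2% to 25.2% in endothelium. Epithelium (1.05 to 1.63) and hematopoietic cells (0.454 to 1.11) held little of it, and red cells at most 1 UMI a library.

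Angpt1, the agonist of TEK, was most abundant not in mesenchyme but in hematopoietic cells, at 69.8, 50.7, 70.2 and 51.1 CPM against 40.6, 14.5, 36.3 and 25.4 in mesenchyme. These cells supplied 56.3%, 42.7%, 61.3% and 68.5% of all Angpt1 UMIs. Within them the lymphoid cluster carried 76.6, 61.1, 75.9 and 55.0, whereas the Klrd1 lymphoid cluster held 0 to 3.78 and macrophage-like cells 0.463 to 5.60. At a finer clustering the level was highest in the cluster led by Serpinb1a, Cd48 and Srgn, which also carries the progenitor gene Mpo (95.9, 89.3, 104 and 112), and lower in the cluster led by the T-cell receptor component Cd3g (65.1, 43.9, 57.5 and 34.5). A finer cluster led by Klrd1, Gzmb and Ccl5 held 60.1, 56.3, 82.3 and 39.2, so that low Angpt1 was a feature of the one Klrd1 cluster above and not of all cells with Klrd1. Pericyte-like cells came next, at 61.0, 46.6, 59.8 and 43.3, followed by cycling mesenchymal cells at 53.1, 15, 43.5 and 32.6. Epithelium held 11.7, 11.7, 11 and 9.63, endothelium 3.89, 1.71, 1.31 and 0.81, and red cells 0.269 to 0.842, so that the endothelium, which carries its receptor, held less Angpt1 than the mesenchymal, epithelial and hematopoietic classes. After thinning, an Angpt1 UMI was seen in 26.2%, 19.7%, 26.4% and 18.7% of hematopoietic cells and in at most 0.714% of red cells.

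Angpt2 was low throughout. Mesenchyme held 8.52, 4.11, 10.7 and 13.4 CPM and endothelium 5.29, 4.19, 5.59 and 13.8, with overlapping intervals in Tbx1neo2/neo2 carrier and PGE2. Epithelium held 2.64 to 3.04 and hematopoietic cells 2.10 to 2.82, above the 0 to 0.269 of red cells. At the finer clustering a smooth muscle cluster led by Acta2, Eln and Tagln held 22.9, 2.81, 25.5 and 28.3, and a cluster led by Col9a3 and Matn4 held 15.5, 2.46, 30.5 and 17.1. These were the highest mesenchymal levels in wild-type carrier, minoxidil and PGE2, but not in Tbx1neo2/neo2 carrier, where the Kcnj8 cluster was highest at 8.74. The Col9a3 and Matn4 cluster held 159, 1005, 83 and 86 cells and rests on the integration of the libraries. Without integration, the cluster led by these genes held 949 cells, all of Tbx1neo2/neo2 carrier. Its cells in the other libraries therefore need not be chondrogenic.

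**Figure D2:**
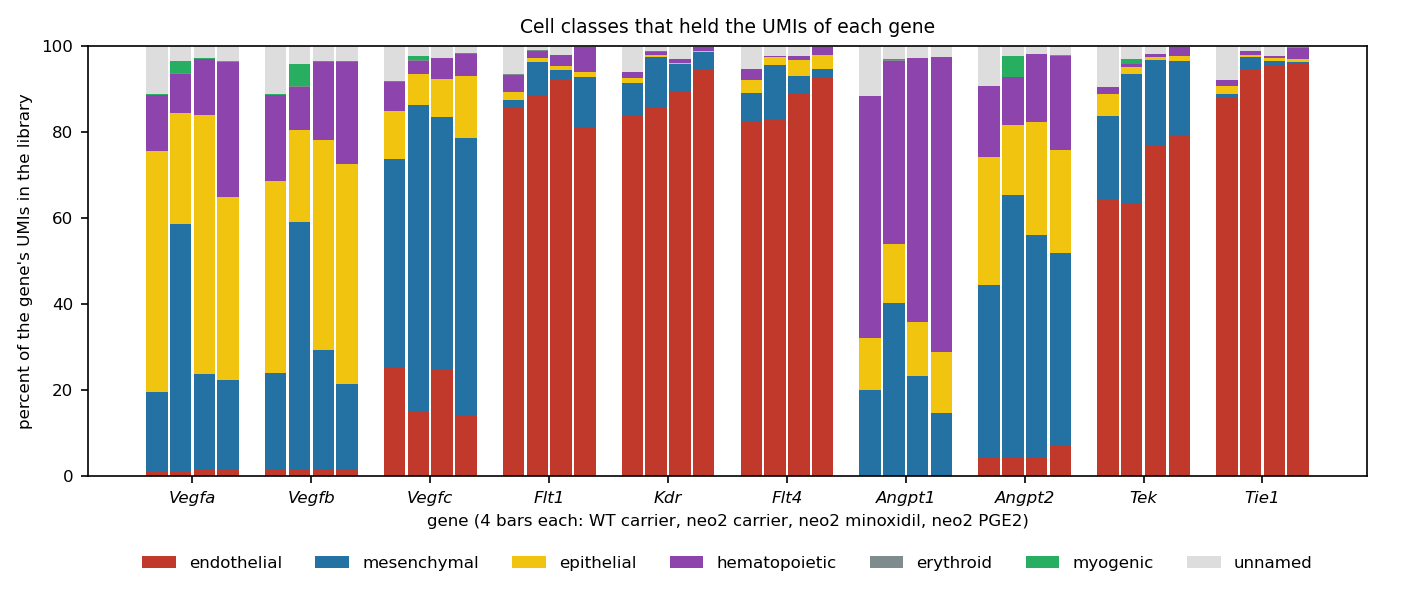
Share of the UMIs of each gene held by each class of cells (stacked bars, percent), with 4 bars a gene in the order wild-type carrier, Tbx1neo2/neo2 carrier, minoxidil, PGE2. Endothelium holds 80.8% or more of Flt1, Kdr, Flt4 and Tie1 in every library, and hematopoietic cells hold 42.7% to 68.5% of Angpt1.

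Genes whose levels ran most alike with each member were sought among 12447 genes over 54 profiles (a cell type in a library, at least 50 cells), as Pearson's r of log2(CPM + 1), which is a description since profiles of 1 library share cells of 1 preparation. Tie1 was closest to Sox17 and Ccm2l (both r = 0.987), Flt1 to C130074G19Rik (0.968) and Myct1 (0.953), Flt4 to Sema3g (0.961) and Kdr to Lhx6 (0.940) and Cav1 (0.930). Tek was closest to Edn1 (0.919), the endothelin gene, and Vegfc to Pear1 (0.918). For Angpt1 the nearest gene reached only 0.835 (Tmem121), whereas Vegfb reached 0.983 with Setd5 and Vegfa 0.943 with Zfp523.

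In endothelial cells, the first comparison asked how the Tbx1 hypomorph differs from wild type without drug. Vegfc was lower in Tbx1neo2/neo2 carrier (136 against 360 UMIs, log2 ratio -0.88, interval -1.18 to -0.59), and this was the only 1 of 10 genes called, a share to be set beside the 7.62% of 11958 genes called in that comparison. The receptors stood close to each other: the log2 ratio was 0.00 for Kdr (interval -0.07 to 0.07), 0.12 for Flt4, 0.10 for Tek, 0.04 for Tie1 and -0.19 for Flt1 (interval -0.27 to -0.10). Vegfa had a log2 ratio of -0.72, but with 44 against 104 UMIs its intervals overlapped.

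The other comparisons asked what each drug changed against Tbx1neo2/neo2 carrier, and both use that same library. In minoxidil, 3 of 9 genes compared were called, all higher, beside 8.74% of 11544 genes: Vegfa (80 against 44 UMIs, log2 ratio 1.13, interval 0.58 to 1.69), Tek (0.64, interval 0.46 to 0.82) and Vegfc (0.61, interval 0.28 to 0.95). In PGE2, 3 of 9 were called, again all higher, beside 10.3% of 11311 genes: Angpt2 (51 against 27 UMIs, log2 ratio 1.72, interval 1.02 to 2.45), Tek (0.75, interval 0.55 to 0.94) and Flt4 (0.62, interval 0.41 to 0.83). Kdr did not pass in any of the comparisons (log2 ratio -0.18 in minoxidil and -0.04 in PGE2), nor did Tie1 (0.31 and 0.53), although the intervals of Tie1 in PGE2 and in Tbx1neo2/neo2 carrier did not overlap. Angpt1, with 3 to 36 UMIs a library, was too sparse to compare between the drugs and carrier.

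**Figure D3:**
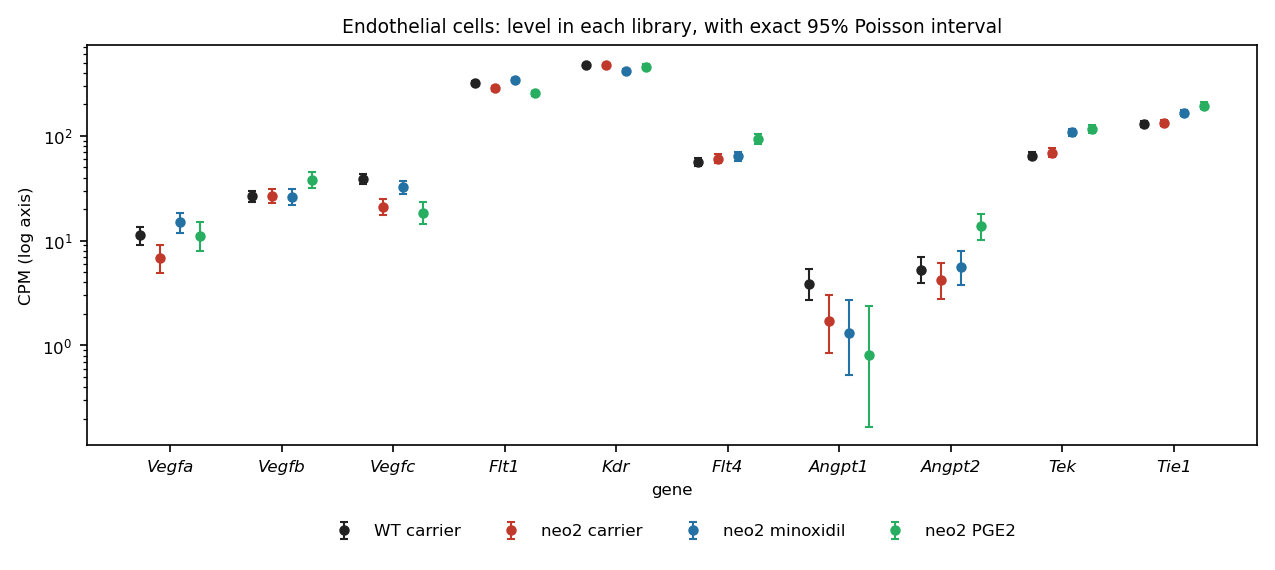
Level of each gene in the endothelial class of each library (points, CPM on a log axis) with its exact 95% Poisson interval (bars). Kdr lies between 416 and 471 in all libraries, Vegfc is lower in Tbx1neo2/neo2 carrier (21.1) than in wild-type carrier (38.9), Tek is higher in minoxidil (108) and PGE2 (116) than in both carrier libraries, and Angpt2 is highest in PGE2 (13.8).

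The endothelial class was not uniform, and its parts had different shares in each library. After the values above had been seen, it was divided into 3 groups of cells. The first was a small cluster of the finer clustering led by Eln, Fbln5, Vwf and the arterial connexin gene Gja4 (669 to 1543 CPM of Gja4, against 76.8 to 128 in the remaining endothelium), which numbered 11, 2, 17 and 9 cells or 5.47%, 0.816%, 17.3% and 8.91% of the class. The second held cells with UMIs of at least 2 of the lymphatic genes Prox1, Lyve1, Reln and Mmrn1, which numbered 29, 11, 13 and 32 cells or 14.4%, 4.49%, 13.3% and 31.7%. The remaining 161, 232, 68 and 60 cells formed the third. For these groups, taken alone or left out, the share of all genes called was not computed, so that their calls cannot be set beside it.

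In the small Gja4 and Vwf cluster, Tek was far higher than elsewhere, at 517, 260, 425 and 467 CPM against 57.8, 67.0, 56.7 and 79.9 in the remaining endothelium. Vegfc too was higher there, at 150, 274, 126 and 72.4 against 40.6, 19.6, 24.9 and 17.1. Vegfa stood at 79.9 in its 17 minoxidil cells (49 UMIs) and at 0 in its 2 Tbx1neo2/neo2 carrier cells, where the interval reached 53.2. With that cluster left out, the log2 ratios of minoxidil against Tbx1neo2/neo2 carrier were -0.08 for Vegfa, -0.01 for Tek and 0.14 for Vegfc, and none of the genes was called. In PGE2 the log2 ratio of Tek without that cluster was 0.39, which was not called either. These calls were thus lost without a cluster of 17 cells in minoxidil, 9 in PGE2 and 2 in Tbx1neo2/neo2 carrier, and why was not tested. Other alternatives lost them too: in minoxidil, Vegfc without integration, Vegfa in cells with at most 5% mitochondrial UMIs, and Tek without cells that carry markers of another class.

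The cells with lymphatic genes were not alike between libraries. They were chosen by UMIs of these genes, so that their levels of them are no separate evidence of what they are. Mmrn1 was also found in the endothelial cells outside the group, at 33.0, 30.5, 25.9 and 17.7 CPM. The group therefore need not be the same cell type in each library. In PGE2 they carried Lyve1 at 1116 CPM and Prox1, the master regulator of lymphatic identity, at 356, against 4.31 to 41.9 and 20.5 to 82.9 in the other 3 libraries. Flt4, the receptor that marks lymphatic endothelium, stood at 182 in the PGE2 cells against 77.3, 70.8 and 84.6, with intervals that did not overlap. Angpt2 stood at 35.5 (47 UMIs, interval 26.1 to 47.2) against 4.52, 7.23 and 6.46, so that 47 of the 51 Angpt2 UMIs of PGE2 endothelium came from these 32 cells. Against the cells with lymphatic genes of Tbx1neo2/neo2 carrier, Tie1 (255 against 114) and Vegfb (62.7 against 28.9) were called higher too, and Flt1 was called lower (110 against 289). How many of all genes would be called between these cells was not computed. The median depth of these cells was 62043, 49047, 112478 and 30274 UMIs, against 36969, 18007, 33427 and 21738 for the whole class, and the part of depth in their number was not tested. Without them, the log2 ratio of PGE2 against Tbx1neo2/neo2 carrier was -0.44 for Flt4 and -1.19 for Angpt2, and Tek (0.85) was the 1 gene still called.

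In the remaining endothelium the levels of the receptors came closer to each other. Kdr stood at 468, 464, 447 and 428 CPM, Flt1 at 341, 276, 319 and 343, Tie1 at 122, 133, 136 and 134, Tek at 57.8, 67.0, 56.7 and 79.9 and Flt4 at 51.5, 59.4, 59.4 and 47.6. No gene was called there for either drug, again without a share of all genes to set beside it. Only Vegfc (log2 ratio -1.05, interval -1.38 to -0.73) and Angpt1 (8 against 33 UMIs, log2 ratio -1.72, interval -3.05 to -0.58) were lower in Tbx1neo2/neo2 carrier than in wild-type carrier. Vegfc was thus the 1 gene called against wild type both in the whole class and in its largest group of cells. In that group it stood at 40.6 in wild-type carrier, 19.6 in Tbx1neo2/neo2 carrier, 24.9 in minoxidil and 17.1 in PGE2, with overlapping intervals in the last 3. The group held 161 of the 201 and 232 of the 245 cells of these classes, so that its call is no separate support. In the whole class, 1 of 10 genes was close to the 7.62% of all genes called.

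**Figure D4:**
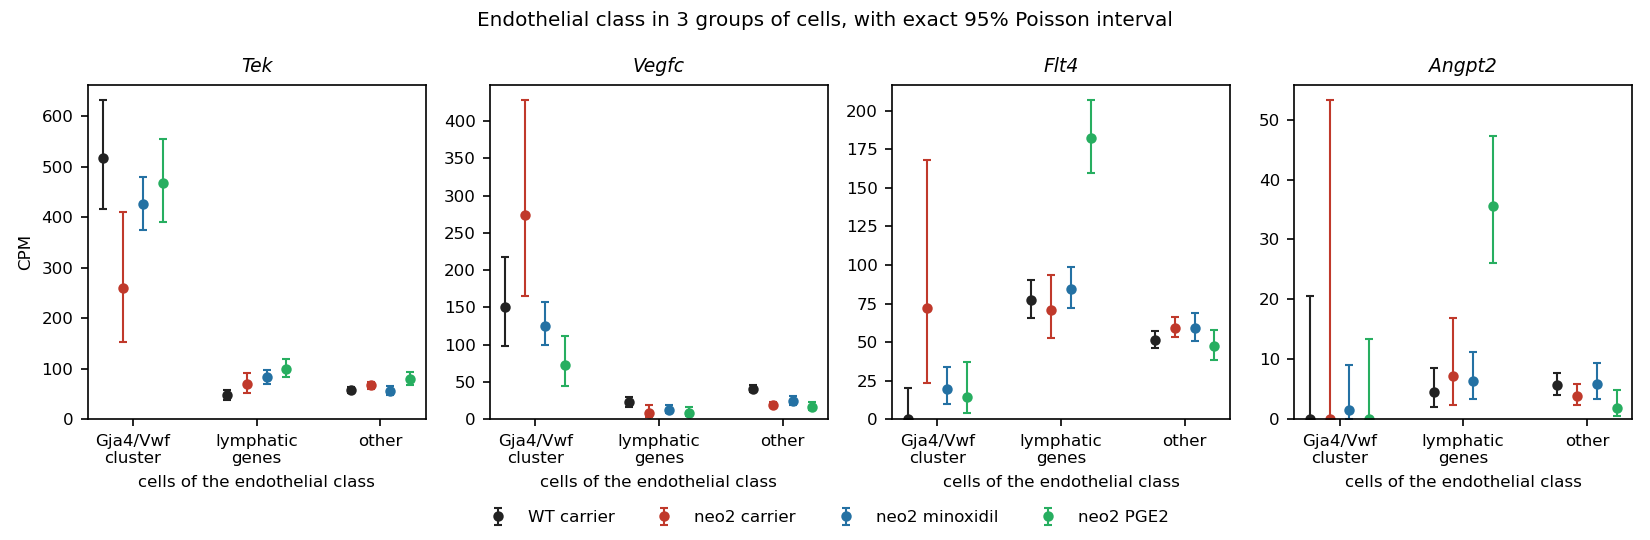
Levels of Tek, Vegfc, Flt4 and Angpt2 (CPM) with exact 95% Poisson intervals in 3 groups of endothelial cells of each library. Tek and Vegfc are highest in the small Gja4 and Vwf cluster (Tek 260 to 517), and Flt4 (182) and Angpt2 (35.5) stand apart in the lymphatic gene cells of PGE2, while the remaining cells differ little except in Vegfc.

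In mesenchyme, Tbx1neo2/neo2 carrier was the library that stood apart. Against wild-type carrier, 6 of 10 genes were called beside 24.0% of 15994 genes, so that differences were common in this class as a whole. The angiopoietins and Vegfc were lower: Angpt1 fell from 40.6 to 14.5 CPM (log2 ratio -1.48, interval -1.58 to -1.38), Angpt2 from 8.52 to 4.11 (-1.05, interval -1.25 to -0.85) and Vegfc from 13.5 to 6.78 (-0.99, interval -1.15 to -0.84). Kdr (-0.81) and Tek (-0.68) were lower as well, and Flt1 was higher (0.60, from 59 and 166 UMIs), but these calls were less steady: of 12 alternatives, Flt1 lost its call under 7 and Kdr under 4, and Tek lost its call or turned under 5. Vegfa (-0.13) and Vegfb (0.07) did not pass.

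Both drug libraries differed from Tbx1neo2/neo2 carrier the other way for the angiopoietins and Vegfc. In minoxidil 4 of 10 genes were called higher and none lower, beside 24.0% of 15775 genes called in either direction: Angpt2 (log2 ratio 1.38, interval 1.17 to 1.59), Angpt1 (1.32, interval 1.21 to 1.43), Tek (1.01) and Vegfc (0.87). In PGE2 5 of 10 were called higher, beside 23.8% of 15637: Flt1 (1.76, interval 1.42 to 2.09), Angpt2 (1.70, interval 1.48 to 1.92), Vegfc (0.95), Tek (0.85) and Angpt1 (0.81, interval 0.67 to 0.95). The mesenchymal level of Angpt1 in PGE2 (25.4) lay between those of Tbx1neo2/neo2 carrier (14.5) and wild-type carrier (40.6), with no overlap of intervals, whereas minoxidil (36.3) lay nearer to wild type. In cells with at most 5% mitochondrial UMIs, Tek was no longer called in either drug library. Sharing the Tbx1neo2/neo2 carrier library, these comparisons are not independent of each other or of the first.

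The mesenchymal types did not move alike. In pericyte-like cells, the mural cells that line vessels and are marked by Kcnj8 and Abcc9 (824, 291, 244 and 225 cells), no gene was called in any of the 3 comparisons, beside 4.38%, 4.49% and 4.77% of all genes. Their Angpt1 stood at 61.0, 46.6, 59.8 and 43.3 CPM and their Angpt2 at 7.87, 8.77, 9.76 and 7.65. In cycling mesenchymal cells Angpt1 fell from 53.1 to 15 in Tbx1neo2/neo2 carrier (log2 ratio -1.82, interval -2.00 to -1.65), and stood at 43.5 in minoxidil and 32.6 in PGE2, both called higher than Tbx1neo2/neo2 carrier. In these cycling cells 3 of 9 genes compared were called in Tbx1neo2/neo2 carrier, 3 of 8 in minoxidil and 4 of 8 in PGE2, beside 21.8%, 22.4% and 22.0% of all genes. Mesothelial-like cells had Angpt1 alone called, lower in Tbx1neo2/neo2 carrier than in wild-type carrier (6 against 79 UMIs), 1 of 8 beside 5.79%. In the mixed chondrogenic and smooth muscle mesenchyme (Col9a3+ or Acta2+) 6 of 8 genes compared were lower in Tbx1neo2/neo2 carrier than in wild-type carrier, beside 23.2% of all genes called: Kdr (-2.35), Vegfc (-2.14), Flt1 (-1.93), Angpt2 (-1.86), Angpt1 (-1.50) and Tek (-1.03). Against Tbx1neo2/neo2 carrier, 7 of 8 were higher in minoxidil, beside 24.3%, and 4 of 8 in PGE2, beside 25.6%, where Flt1 had the largest ratio of the 8 (log2 ratio 4.31, interval 3.56 to 5.12).

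The comparisons within a mesenchymal type rest on the integration of the libraries. Without it, most mesenchyme of Tbx1neo2/neo2 carrier formed clusters of its own, with 2721 of 2738, 949 of 949, 914 of 930 and 910 of 910 cells from that library, so that cells of a type need not be the same kind of cell in each library.

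Fibroblast-like cells (Dcn+, Ogn+) went against the cycling and mixed mesenchyme for Angpt1. Of 9 genes compared in them, 4 were called in Tbx1neo2/neo2 carrier, 4 in minoxidil and 7 in PGE2, beside 18.1%, 18.9% and 15.7% of all genes. There it stood at 9.83 CPM in wild-type carrier, 16.3 in Tbx1neo2/neo2 carrier, 9.19 in minoxidil and 6.62 in PGE2, higher in Tbx1neo2/neo2 carrier than in every other library with no overlap of intervals. A finer cluster of the mesenchyme led by Col2a1, Igfbp5 and Sox9 likewise held more in Tbx1neo2/neo2 carrier (13.4, 132 UMIs) than in wild-type carrier (3.64, 5 UMIs). Vegfc in these cells was 6.55, 9.06 and 8.5 in the first 3 libraries and 32.8 in PGE2 (109 UMIs, interval 26.9 to 39.6), the highest level of Vegfc among the named mesenchymal types and libraries. Vegfa was 41.3, 29.1, 54.4 and 47.2 in them, called higher in minoxidil (log2 ratio 0.90) and PGE2 (0.70) than in Tbx1neo2/neo2 carrier. Flt1 was listed with 2 UMIs in wild-type carrier against 55 in Tbx1neo2/neo2 carrier, a log2 ratio of 2.60 with a counting interval from 0.68 to 5.68.

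Since the makeup of the class differed, its values follow. The Tbx1neo2/neo2 carrier library held 3016 cells of the mixed mesenchyme, 1690 fibroblast-like, 1209 cycling and 291 pericyte-like cells, against 792, 355, 606 and 824 in wild-type carrier. With equal weight for each mesenchymal type in every library, Angpt1 and Angpt2 remained called in Tbx1neo2/neo2 carrier against wild-type carrier, Kdr (-0.54) and Tek (0.17) did not, and the ratio of Angpt1 in PGE2 fell to 0.14. Endothelial markers in the mesenchymal class summed to 188, 61.8, 188 and 188 CPM, lowest in Tbx1neo2/neo2 carrier, and their part in the differences of the class was not tested. These markers did not all go 1 way. The class held 51378992, 95345935, 32860205 and 23611456 UMIs in all. Of these, Cdh5 had 35, 91, 16 and 7, its largest share being in Tbx1neo2/neo2 carrier. Pecam1 had 145, 130, 66 and 36, its smallest share being there.

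**Figure D5:**
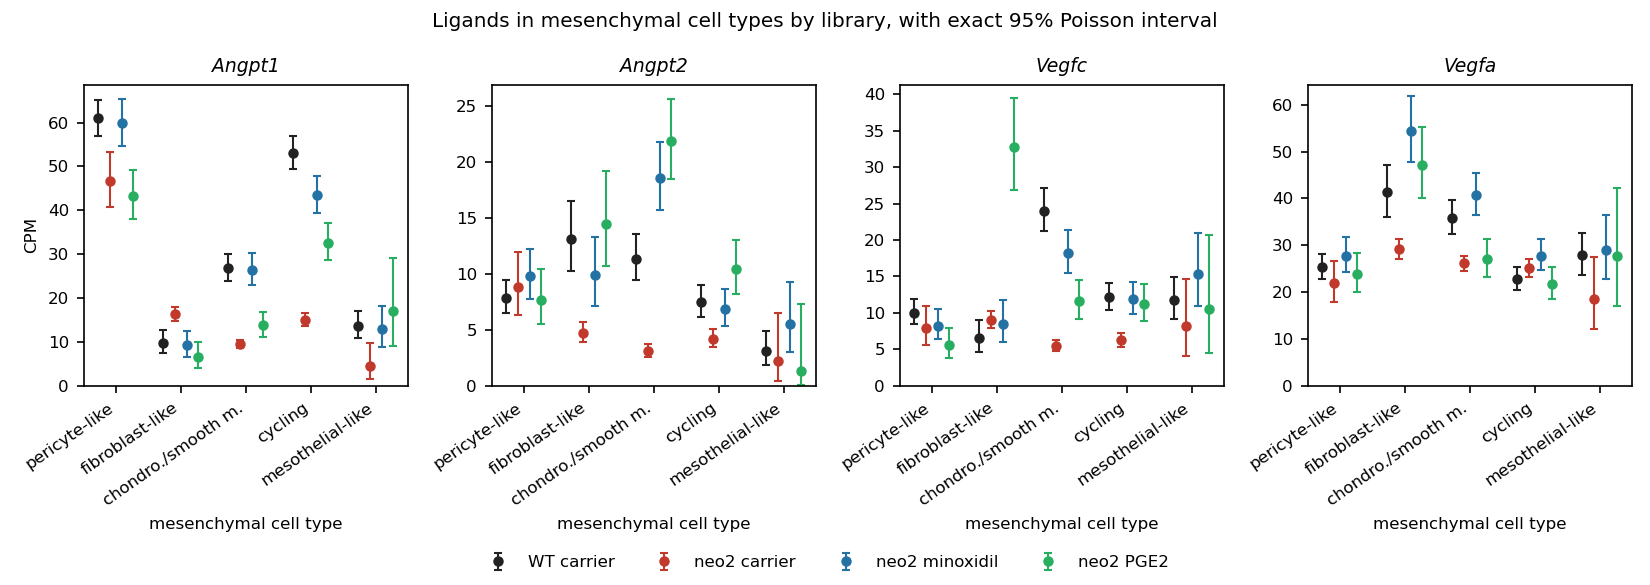
Levels of Angpt1, Angpt2, Vegfc and Vegfa (CPM) with exact 95% Poisson intervals in 5 mesenchymal cell types of each library. In pericyte-like cells the libraries lie close together (Angpt1 43.3 to 61.0), in the mixed chondrogenic and smooth muscle mesenchyme and in cycling cells Tbx1neo2/neo2 carrier is lowest for Angpt1, and in fibroblast-like cells it is highest (16.3).

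In epithelium, only Vegfa and Kdr were called in any comparison. Vegfa stood at 42.3 CPM in wild-type carrier, 28.3 in Tbx1neo2/neo2 carrier, 52.2 in minoxidil and 21.8 in PGE2, and none of these 4 intervals overlapped. Against wild-type carrier no gene of 10 was called in Tbx1neo2/neo2 carrier, beside 8.39% of 15818 genes, since Vegfa (log2 ratio -0.58, interval -0.68 to -0.49) lay just short of 1.5-fold. Against Tbx1neo2/neo2 carrier, Vegfa was higher in minoxidil (log2 ratio 0.89, interval 0.79 to 0.99), 1 of 2 genes called of 8 compared beside 9.09% of 15063. The other was Kdr (5 against 18 UMIs, -2.42, interval -4.21 to -0.94), and Kdr was the only gene called in PGE2 (2 against 18 UMIs, -3.77, interval -6.92 to -1.71, 1 of 8 beside 9.23%). These few Kdr UMIs came beside 22.0 to 28.3 CPM of endothelial markers in the epithelial class, and what they stem from was not tested.

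The Vegfa difference was seen in every epithelial type. Cortical TEC-like cells (Psmb11+, Prss16+) held 41.9, 28.9, 51.2 and 20.6 CPM, cycling epithelial cells 43.0, 30.8, 53.3 and 24.2, and the Krt5+ bipotent TEC-like cells 34.6, 22.0, 51.5 and 18.6. In minoxidil it was called higher than in Tbx1neo2/neo2 carrier in all 3, with log2 ratios of 0.82, 0.79 and 1.23, the 1 gene called of 5 compared in each, beside 6.68%, 6.46% and 8.36% of all genes. In bipotent TEC-like cells Tbx1neo2/neo2 carrier was also lower than wild-type carrier (-0.65, interval -0.89 to -0.43), 1 of 8 beside 7.41%. After thinning, a Vegfa UMI was seen in 18.3%, 12.9%, 22.3% and 10.8% of epithelial cells, the same order as the levels.

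Targets of the hypoxia response, to which Vegfa itself belongs, were followed as a list of 12 genes. In epithelium of minoxidil, 6 of 12 were higher than in Tbx1neo2/neo2 carrier and none was lower, with a median log2 ratio of 0.60 beside 0.02 over all genes, of which 9.09% were called. Pgk1, an enzyme of glycolysis, stood at 123, 77.9, 377 and 98.2 CPM and Adm, a vasodilator peptide gene, at 11, 8.92, 24.4 and 16. In PGE2, 1 was higher and 2 were lower (median -0.46, beside -0.01, with 9.23% of all genes called), and in Tbx1neo2/neo2 carrier against wild type 1 was lower (median -0.27, beside -0.07, with 8.39% called). In endothelium the list had 5 higher and none lower of 12 in minoxidil (median 0.56, with 8.74% of all genes called) and 1 higher and 4 lower of 11 in PGE2 (median -0.51, with 10.3% called). In mesenchyme it was split, with 3 higher and 3 lower of 12 in each drug library, beside 24.0% of all genes called in minoxidil and 23.8% in PGE2. Pgk1 was high in minoxidil in all of these classes (152 CPM in endothelium against 31.8 to 65.1, and 64.6 in mesenchyme against 22.4 to 25.4).

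In the hematopoietic class, only Kdr was called (18 against 24 UMIs, log2 ratio -1.33 in PGE2 against Tbx1neo2/neo2 carrier). No gene was called in minoxidil or in Tbx1neo2/neo2 carrier, while 15.7% and 13.6% of all genes were, and 20.6% in PGE2. Angpt1 had a log2 ratio of -0.46 (interval -0.55 to -0.38) in Tbx1neo2/neo2 carrier against wild type and of 0.47 in minoxidil and 0.01 in PGE2 against Tbx1neo2/neo2 carrier. Over the whole class its levels fell into pairs, wild-type carrier with minoxidil (69.8 and 70.2) and Tbx1neo2/neo2 carrier with PGE2 (50.7 and 51.1), with overlap within and none between the pairs. The makeup of the class differed, however. Macrophage-like cells, which held little Angpt1, were 283 of its 2361 cells, 346 of 1154, 108 of 746 and 112 of 1208. Their part in the pairs was not tested. In the lymphoid cluster Angpt1 was lower in PGE2 than in Tbx1neo2/neo2 carrier. The Serpinb1a, Cd48 and Srgn cluster held 95.9, 89.3, 104 and 112, highest in PGE2. Among the types, lymphoid cells had Vegfc called lower in PGE2 than in Tbx1neo2/neo2 carrier (13 against 22 UMIs, 1 of 8 beside 15.9%), and macrophage-like cells had Vegfa and Angpt1 called lower in Tbx1neo2/neo2 carrier than in wild-type carrier (2 of 4 beside 10.3%).

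Partners of these ligands and receptors were read from a list of 10 (Pgf, Vegfd, Nrp1, Nrp2, Ptprb, Angpt4, Angptl1, Ccbe1, Adamts3 and Svep1). In mesenchyme, Tbx1neo2/neo2 carrier had 3 higher and 4 lower of 10 against wild type (median log2 ratio -0.30, beside 0.01 over all genes), minoxidil 4 higher and 3 lower of 9 (median -0.02, beside -0.02) and PGE2 4 higher and 2 lower of 9 (median 0.04, beside -0.06) against Tbx1neo2/neo2 carrier. Of all genes, 24.0%, 24.0% and 23.8% were called in these comparisons. Nrp1, the neuropilin that binds VEGFA, stood at 353, 80.4, 373 and 387 CPM in mesenchyme. Ccbe1, needed for the processing of VEGFC, stood at 15.7, 4.91, 15.8 and 10.6, and Pgf, a further FLT1 ligand, at 7.03, 3.0, 9.80 and 11.7. Angptl1, an orphan relative of the angiopoietins, went the other way at 7.98, 242, 12.2 and 26.7. It was also found at 14.6 in the epithelial and 24.7 in the endothelial class of Tbx1neo2/neo2 carrier, against at most 0.364 and 3.54 in the same classes of the other libraries, and the part of mesenchymal RNA in those levels was not tested. In endothelium the list had 2 higher and 1 lower of 6 in Tbx1neo2/neo2 carrier, 1 and 1 in minoxidil and 3 and 2 in PGE2, beside 7.62%, 8.74% and 10.3% of all genes. Ptprb, the phosphatase that restrains TEK, was at 81.5, 68.7, 151 and 143; it is among the leading genes of the small Gja4 and Vwf cluster, which made up 0.816% of the class in Tbx1neo2/neo2 carrier, 17.3% in minoxidil and 8.91% in PGE2, and the part of that cluster in its levels was not tested. Nrp2, a coreceptor of VEGFC in lymphatic vessels, was at 145, 149, 133 and 276.

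Of a list of 10 genes of endothelial VEGF and Notch response, 1 was higher and 2 were lower in endothelium of Tbx1neo2/neo2 carrier (median log2 ratio 0.03, with 7.62% of all genes called), 2 and 1 in minoxidil (0.07, with 8.74%) and 1 and 3 in PGE2 (-0.20, with 10.3%). Esm1, a tip cell gene, stood at 45.6, 39.8, 19 and 15.7 CPM and Dll4, the tip cell ligand of Notch, at 51.1, 41.0, 49.96 and 26.2, while the receptor Notch1 stayed at 129, 129, 130 and 116. In mesenchyme 4 of 10 were lower and 1 higher in Tbx1neo2/neo2 carrier, and 4 of 9 (minoxidil) and 4 of 8 (PGE2) were higher against it, 2 and 1 being lower, beside 24.0%, 24.0% and 23.8% of all genes. Of the 5 lymphatic genes, all 5 were higher in endothelium of PGE2 than of Tbx1neo2/neo2 carrier (beside 10.3% of all genes called in either direction, median log2 ratio 4.28, Lyve1 399 against 4.51 CPM and Prox1 130 against 6.68). In minoxidil 1 was lower, and in Tbx1neo2/neo2 carrier against wild type 1 was higher and 1 lower.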

How the data were processed

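Single-cell RNA libraries of fetal thymic lobes, 1 for each of 4 groups, were read from the UMI counts deposited by the authors, who aligned reads to mm10 with Cell Ranger 5.0.1 and worked in Seurat; whether intronic reads were counted is not given in the sources used here. The 10 genes and the gene lists were chosen with earlier results of these data known, and the division of the endothelial class was made after its values were seen. Cells under 200 genes or over 10% mitochondrial UMIs were dropped. They were clustered in Seurat 5.3.0 (with R 4.3.3, the data.table package at 1.17.8, Matrix at 1.6.5 and SeuratObject at 5.2.0) on 2000 variable genes that held none of the 10, with 30 dimensions and a resolution of 0.3 (0.6 for the finer clustering), and the 20 clusters were named from fixed marker lists, 3 staying unnamed. Counts were summed and compared with pandas 2.3.3, scipy 1.17.1 and numpy 2.4.6 under Python 3.11.15, and plotted with matplotlib 3.10.9; the computations were tested on simulated data. Scrublet (scanpy 1.11.5) marked 567 cells in wild-type carrier, 0 in Tbx1neo2/neo2 carrier, where it had not worked, 70 in minoxidil and 75 in PGE2; doublets stayed in and were left out as an alternative. Total UMIs were 292687940, 194023208, 151740600 and 156363845 in that order of libraries, and intervals cover counting error only. All 10 members are named, with partner genes from the lists and, for likeness, the closest genes by Pearson's r. Alternatives changed the filter, clustering, doublets, class definition, weighting, fold and scaling (edgeR 4.0.16 TMM factors).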

Additional observations from a re-analysis of the deposited data

Results flagged for a closer look

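Angpt1 moved in opposite directions among cell types under the same comparison; with 1 library a group these differences between types were not tested. In Tbx1neo2/neo2 carrier against wild-type carrier the log2 ratio of Angpt1 was 0.728 in fibroblast-like cells, against -1.499 in the mixed chondrogenic and smooth muscle mesenchyme, -1.825 in cycling mesenchymal cells, -1.618 in mesothelial-like cells and -3.49 in macrophage-like cells, the last from 2 against 30 UMIs with a counting interval of -6.60 to -1.51. In minoxidil against Tbx1neo2/neo2 carrier it was -0.8248 in fibroblast-like cells, against 1.479 in the mixed mesenchyme and 1.536 in cycling mesenchymal cells. In PGE2 against Tbx1neo2/neo2 carrier it was -1.298 in fibroblast-like cells and 1.123 in cycling mesenchymal cells. The comparisons with the drugs share the Tbx1neo2/neo2 carrier library.

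Flt1 in Tbx1neo2/neo2 carrier against wild-type carrier had a log2 ratio of 2.599 in fibroblast-like cells (55 against 2 UMIs, interval 0.68 to 5.68) and of -1.931 in the mixed mesenchyme, a difference that was not tested. Vegfc in PGE2 against Tbx1neo2/neo2 carrier had log2 ratios of 1.856 in fibroblast-like cells, 1.089 in the mixed mesenchyme and 0.854 in cycling mesenchymal cells, and of -1.84 in lymphoid cells (13 against 22 UMIs), also not tested.

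The 3883 cells of the 3 unnamed clusters entered no comparison and held all 10 genes above the 0.0612 CPM that 3 counts would give. Their levels over all libraries were 27.47 CPM for Vegfa, 64.25 for Vegfb, 3.449 for Vegfc, 6.246 for Flt1, 9.266 for Kdr, 1.143 for Flt4, 32.8 for Angpt1, 3 for Angpt2, 2.633 for Tek and 3 for Tie1.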

How the results depend on the processing

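No paired analysis was possible because each group held 1 library. Of 25 called ratios of the 10 genes in the endothelial, mesenchymal and epithelial classes, 6 were called under every alternative run (mesenchymal Angpt1 in Tbx1neo2/neo2 carrier and minoxidil, Angpt2 in all 3 comparisons and Flt1 in PGE2), 5 were lost only where 2-fold was asked and 14 under another alternative as well or instead. Leaving out the lymphatic gene cells, the small endothelial cluster or the cells with the 5% highest doublet scores was chosen after seeing the data, and the cause of the changes below was not tested.

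In endothelium, the 1 gene called in Tbx1neo2/neo2 carrier became 2 without integration, without the 5% highest doublet scores, without the lymphatic gene cells, without these and the small cluster, and with the mean of each cell's level, and 0 at 2-fold. The 3 genes called in minoxidil became 1 without integration, without the 5% highest doublet scores and at 2-fold, and 0 without the small cluster, alone or with the lymphatic gene cells. The 3 called in PGE2 became 1 without the lymphatic gene cells and at 2-fold, 0 without both, and 5 with the mean of each cell's level. Counts hide which genes were called. Tek and Flt4 in PGE2 lost their calls without cells that carry markers of another class, and with classes from the markers of each cell. They lost them without the 5% highest doublet scores too, which left only Angpt2 of the main 3. Tek in minoxidil was lost under the same settings. The direction turned for Vegfa in minoxidil (log2 ratio -0.0826 without the small cluster and -0.576 without both) and Tek in minoxidil (-0.00591 and -0.240), and for Flt4 in PGE2 (-0.445 without the lymphatic gene cells and -0.320 without both) and Angpt2 in PGE2 (-1.19 and -1.03).

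In mesenchyme, the 6 genes called in Tbx1neo2/neo2 carrier and the 5 in PGE2 each became 2 at 2-fold, and Tek in Tbx1neo2/neo2 carrier turned to 0.0894 in cells with at most 5% mitochondrial UMIs and to 0.175 with equal weight for each cluster. Tek was also lost at 5% mitochondrial UMIs in minoxidil and PGE2, and with equal weight in minoxidil. Its lowest log2 ratio under any alternative was 0.296 in minoxidil and 0.0953 in PGE2. In epithelium, the 0 genes called in Tbx1neo2/neo2 carrier became 2 without integration, 1 without Scrublet doublets, and 3 with classes from the markers of each cell, without the 5% highest doublet scores and with the mean of each cell's level. The 2 called in minoxidil became 1 under these (Scrublet apart), in cells with at most 5% mitochondrial UMIs, without cells that carry markers of another class and at 2-fold, and Kdr turned to 0.422 without cells that carry markers of another class. The 1 called in PGE2 became 0 without integration, at 5% mitochondrial UMIs, without cells that carry markers of another class, with classes from the markers of each cell and without the 5% highest doublet scores. TMM factors ranged from 0.981 to 1.04.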
